A study of Mus musculus with 6 samples.

Results

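Osteoclasts and their macrophage precursors receive a costimulatory signal through adaptor proteins that carry an immunoreceptor tyrosine-based activation motif (ITAM). Here 10 genes of that route, chosen by name, were followed in RNA-Seq libraries: the ITAM adaptors Tyrobp (DAP12) and Fcer1g (the Fc receptor gamma chain), the receptors Trem2, Oscar and Siglec15, the kinases Syk, Btk and Tec, the scaffold Blnk and the phospholipase Plcg2. All 10 were found among the 49315 genes of the deposited table, and all 10 passed the filter on low values. The libraries came from osteoclasts of wild-type mice at day 4, differentiated with 75 ng/mL RANKL and a lower share of M-CSF-containing CMG14-12 supernatant (3 libraries), and from wild-type bone marrow macrophages (BMMs) at day 0, grown without RANKL in a higher share of that supernatant (3 libraries). BMMs were adherent cells of flushed marrow, and the labels give no sex, age or animal for any library. No library of a culture kept to day 4 without RANKL was analysed here, so RANKL, the M-CSF supply and the days of culture cannot be told apart in any difference.

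ITAM adaptors have almost no extracellular part of their own. A receptor that binds the ligand associates with the adaptor inside the membrane, through a basic residue of the receptor and an acidic residue of the adaptor. Src family kinases then phosphorylate the paired tyrosines of the ITAM, Syk docks on them, and Syk together with Tec family kinases and a scaffold activates phospholipase C gamma. The calcium signal that follows leads to NFATc1, the main transcription factor of osteoclast formation. Mice that lack both adaptors are known to form hardly any osteoclasts.

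The coding stretches of the ITAMs are shown because they are what the adaptors share. In the coding sequences of the 10 genes (GENCODE, GRCm38), a search for a tyrosine followed after any 2 residues by leucine or isoleucine, repeated after 6 to 8 residues, matched once in Tyrobp, once in Fcer1g and in none of the other 8. The Tyrobp match covers codons 92 to 106 over 2 exons (chr7:30415670-30417382, plus strand), and the Fcer1g match covers codons 65 to 79 over 2 exons (chr1:171229889-171230072, minus strand). Capitals mark the tyrosine and leucine codons, each stretch has 45 bases, and 19 of the 45 bases were identical between them. The codons gave the same residue at 5 of 15 positions.
Tyrobp ITAM: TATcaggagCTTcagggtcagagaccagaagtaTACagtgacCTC
Fcer1g ITAM: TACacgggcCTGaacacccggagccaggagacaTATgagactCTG

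The membrane stretches of both adaptors, Trem2 and Oscar are shown because adaptor and receptor meet there, and that of Siglec15 is not shown. They are the 21 codons with the highest mean Kyte-Doolittle hydropathy after the first 20 codons, and each held 1 charged residue, whose codon is in capitals. It was an aspartate in Tyrobp (codon 52, chr7:30414542-30414604) and Fcer1g (codon 29, chr1:171231186-171231248), a lysine in Trem2 (codon 183, chr17:48351777-48351839) and an arginine in Oscar (codon 237, chr7:3610818-3610880).
Tyrobp membrane stretch: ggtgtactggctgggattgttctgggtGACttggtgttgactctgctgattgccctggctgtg
Fcer1g membrane stretch: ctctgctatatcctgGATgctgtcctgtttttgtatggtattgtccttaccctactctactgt
Trem2 membrane stretch: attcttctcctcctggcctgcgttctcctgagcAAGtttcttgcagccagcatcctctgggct
Oscar membrane stretch: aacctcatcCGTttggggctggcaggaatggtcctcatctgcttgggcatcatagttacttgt

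The promoters of Oscar and Trem2 are shown because these receptor genes moved in opposite directions. They are the 250 bases before the start (RefSeq, GRCm38.p6), of Oscar at chr7:3616158-3616407 on the minus strand and of Trem2 at chr17:48346151-48346400 on the plus strand. Capitals mark matches on either strand to the NFAT core GGAAA, the PU.1 core GAGGAA, the E-box CATGTG or CACGTG that MITF can bind, and the AP-1 motif TGANTCA. The NFAT and PU.1 cores can overlap. Oscar held 3 NFAT cores, 1 PU.1 core, 1 E-box and no AP-1 motif, and Trem2 held 3 NFAT cores, 1 PU.1 core, no E-box and 1 AP-1 motif. Of 32851 RefSeq promoters of this length, 55.6% held the NFAT core, 23.3% the PU.1 core, 17.6% the E-box and 6.75% the AP-1 motif, so matches of these kinds are common and describe letters only.
Oscar promoter: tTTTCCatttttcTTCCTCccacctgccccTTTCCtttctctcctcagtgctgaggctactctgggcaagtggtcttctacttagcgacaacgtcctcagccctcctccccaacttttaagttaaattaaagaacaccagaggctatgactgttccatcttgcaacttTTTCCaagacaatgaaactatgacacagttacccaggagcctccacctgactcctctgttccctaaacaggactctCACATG
Trem2 promoter: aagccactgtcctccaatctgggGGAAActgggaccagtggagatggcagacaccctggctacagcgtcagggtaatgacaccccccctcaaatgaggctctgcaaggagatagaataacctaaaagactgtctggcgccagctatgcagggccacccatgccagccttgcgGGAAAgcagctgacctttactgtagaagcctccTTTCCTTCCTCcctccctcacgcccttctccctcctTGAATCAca

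Values are TPM, transcript abundance scaled by gene length and to the same total in each library. Levels of different genes can be set side by side only as far as the lengths used hold, and those lengths are not stated. The reads behind a TPM value are unknown. Each gene was tested on log2(TPM + 1) with limma among the 12325 genes that averaged 1 TPM or more, with Benjamini-Hochberg adjustment and a threshold of 0.05. Of the 10 genes, 4 were higher in osteoclasts and 3 were lower, where 45.3% of all genes tested were higher and 23.5% were lower. The groups did not overlap in TPM for 9 of the 10, where this held for 73.5% of all genes tested. With 10 genes, nothing is read from these shares. The 4 higher genes were Oscar, Siglec15, Syk and Btk, and without osteoclast replicate 1, BMM replicate 1 or BMM replicate 2 only 2 of them, Oscar and Siglec15, were called. Over all 12325 genes the median log2 fold change was 0.19. Median-ratio scaling brought it to 0.004 and the share of higher genes among those called to 50.1%, against 65.8% with the TPM as deposited. Changes of about that size depend on the scaling, which concerns Syk, Btk, Tyrobp, Plcg2 and Blnk below. Of the osteoclast markers, 9 of 9 (Acp5, Ctsk, Mmp9, Calcr, Dcstamp, Ocstamp, Atp6v0d2, Itgb3 and Nfatc1) were higher, with Acp5 at 13052 ± 405 TPM in osteoclasts and 53.8 ± 1.55 TPM in BMMs (SD, n = 3 each). The labels call the libraries biological replicates but name no animal or culture, so a p-value here covers the spread among these libraries and no more.

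**Figure D1:**
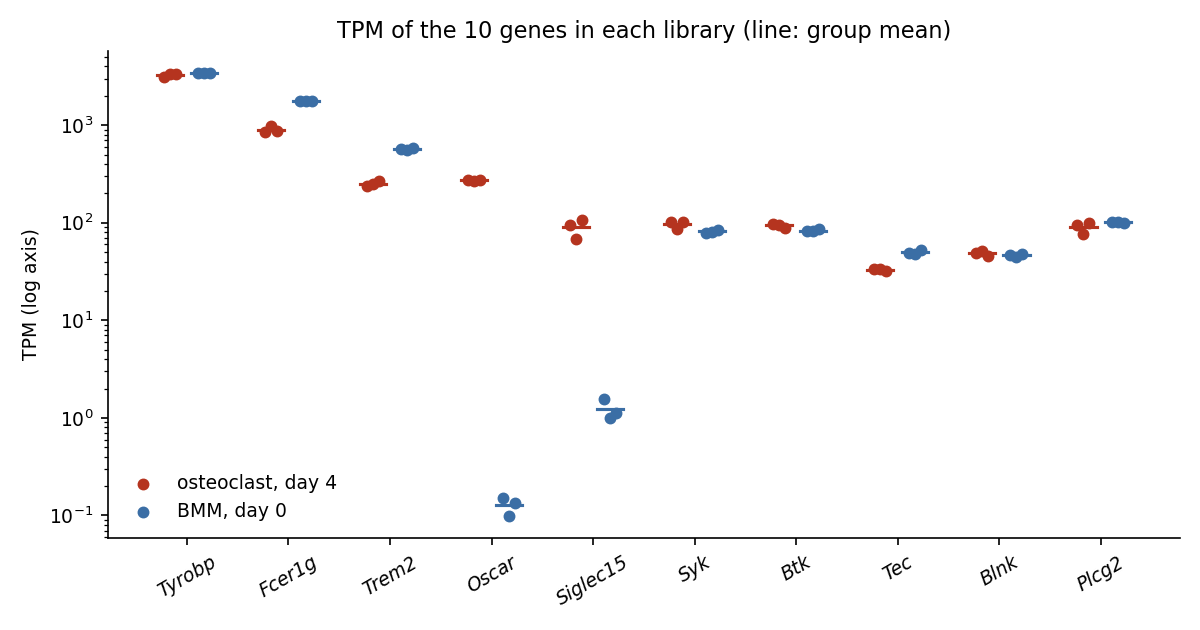
TPM of the 10 genes in the 3 osteoclast libraries (red, left) and the 3 BMM libraries (blue, right) on a log axis, with a line at each group mean. Oscar and Siglec15 lie far apart between the groups, Fcer1g, Trem2 and Tec are lower in osteoclasts, and the other 5 genes lie close together.

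The adaptor pair did not move together. Tyrobp (ENSMUSG00000030579, chr7:30413760-30417585) measured 3111, 3333 and 3383 TPM in osteoclasts and 3434, 3406 and 3416 TPM in BMMs. The osteoclast libraries all lay below the BMM libraries, yet by little, and the log2 fold change of -0.06 (standard error 0.05, 95% interval -0.18 to 0.05) did not pass the test (adjusted p = 0.29 from limma). Tyrobp ranked 29 by level among the 12325 genes in osteoclasts and 25 in BMMs. After median-ratio scaling its log2 fold change was -0.28 and passed the test (adjusted p = 0.012 from limma, in a range of 0.0011 to 0.53 over 16 alternatives).
Fcer1g (ENSMUSG00000058715, chr1:171229572-171234365), which serves Oscar and the activating Fc receptors, measured 853, 970 and 872 TPM in osteoclasts and 1763, 1768 and 1752 TPM in BMMs. It fell to 51.0% of its BMM level, with -0.97 on the log2 scale (standard error 0.06, adjusted p = 1.9e-06 from limma), and was called in 16 of 16 alternatives. In bulk RNA, fewer cells of a type and less RNA per cell cannot be told apart. The ratio of Tyrobp to Fcer1g within a library, which does not depend on scaling, was 3.65, 3.44 and 3.88 in osteoclasts and 1.95, 1.93 and 1.95 in BMMs. On the log2 scale it was higher by 0.91 in osteoclasts (exact permutation p = 0.1, two-sided, the smallest that 3 libraries against 3 allow, and 0.1 after adjustment over 9 ratios).
Hcst, the adaptor DAP10 that can join Tyrobp complexes, measured 32.6 ± 2.24 TPM in osteoclasts and 28.5 ± 2.74 TPM in BMMs (SD, n = 3 each) and did not pass the test. Of 7 other adaptors listed, the 3 CD3 chains, Cd247 and Cd79a did not reach the filter, and Cd79b, of the B cell receptor, fell to 0.758 ± 0.300 TPM in osteoclasts, against 8.66 ± 0.305 TPM in BMMs (SD, n = 3 each).

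The receptors changed the most of the 10 genes. Trem2 (ENSMUSG00000023992, chr17:48346401-48354147), a lipid-sensing receptor that signals through Tyrobp, measured 237, 248 and 268 TPM in osteoclasts and 572, 562 and 588 TPM in BMMs. It fell to 43.7% of its BMM level (log2 fold change -1.19, standard error 0.06, adjusted p = 6.0e-07 from limma).
Oscar (ENSMUSG00000054594, chr7:3609813-3616157), a receptor for collagen that signals through Fcer1g, measured 272, 270 and 277 TPM in osteoclasts and 0.152, 0.0985 and 0.135 TPM in BMMs. The osteoclast libraries were close to each other, with a coefficient of variation of 1.20%, and the group means differed 2120-fold. Since the BMM values are near 0 and their read numbers unknown, that ratio is imprecise. On log2(TPM + 1) the difference was 7.92 (standard error 0.06, adjusted p = 1.1e-10 from limma), which ranked 4 from the top of the 12325 genes.
Siglec15 (ENSMUSG00000091055, chr18:78043614-78057395), a sialic acid-binding receptor that signals through Tyrobp, measured 95.4, 68.4 and 106 TPM in osteoclasts and 1.58, 0.997 and 1.13 TPM in BMMs. Osteoclast replicate 2 was the lowest of the osteoclast libraries and still far above every BMM library. The log2 fold change was 5.33 (standard error 0.17, adjusted p = 8.0e-08 from limma), which ranked 22 from the top. Trem2, Oscar and Siglec15 were called in the same direction in 16 of 16 alternatives each.

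The makeup of the receptor genes differed between the groups, while their sum overlapped with the TPM as deposited. The summed TPM of Trem2, Oscar and Siglec15 was 604, 587 and 651 in osteoclasts and 574, 563 and 590 in BMMs. The means were 614 ± 33.4 in osteoclasts and 576 ± 13.3 in BMMs (SD, n = 3 each). The overlap rests on osteoclast replicate 2 and BMM replicate 3. The sum was not remade under the other scalings. Median-ratio scaling lowers the osteoclast values and raises the BMM values, so how the sums compare depends on the scaling. Trem2 held 40.9% ± 1.52 of that sum in osteoclasts and 99.8% ± 0.0568 in BMMs (SD, n = 3 each). Oscar held 44.5% ± 1.85 in osteoclasts and 0.0223% ± 0.00452 in BMMs (SD, n = 3 each), and Siglec15 held 14.6% ± 2.57 in osteoclasts and 0.215% ± 0.0527 in BMMs (SD, n = 3 each). In osteoclasts the deposited TPM of Oscar and Trem2 were about the same, with 1.15, 1.09 and 1.03 TPM of Oscar for each TPM of Trem2. The gene lengths behind these TPM are not stated. Over all annotated transcripts Trem2 has 4946 exonic bases, Oscar 1847 and Siglec15 1156. Levels and shares of these genes against each other depend on the length used and are uncertain.
Set against their adaptors, the receptors also shifted. Oscar per Fcer1g was 0.319, 0.279 and 0.317 in osteoclasts and 8.62e-05, 5.57e-05 and 7.71e-05 in BMMs. Trem2 per Tyrobp was 0.0763, 0.0743 and 0.0792 in osteoclasts and 0.167, 0.165 and 0.172 in BMMs, a log2 difference of -1.13 (exact permutation p = 0.1, two-sided, the smallest possible). These are ratios of RNA and say nothing of how much protein is paired.

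**Figure D2:**
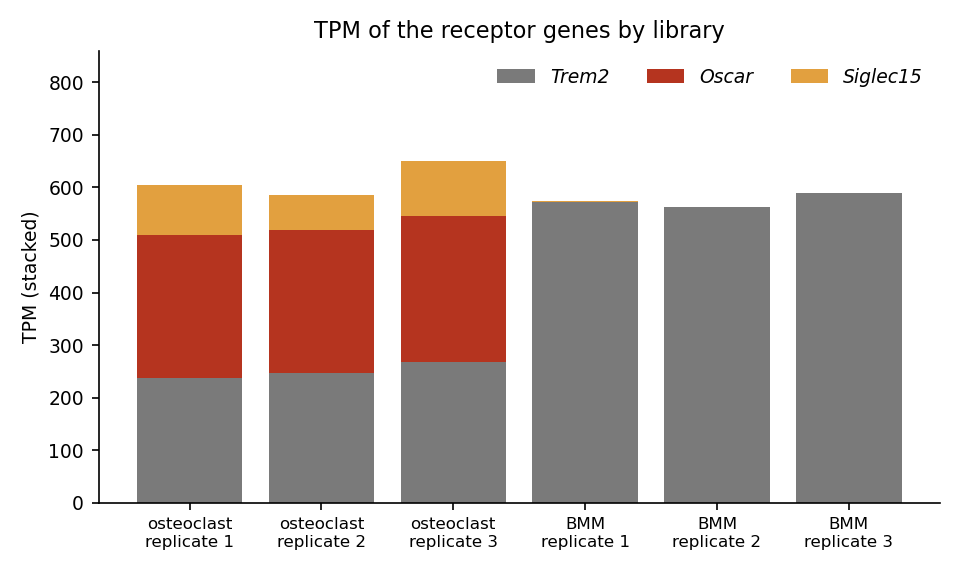
Stacked TPM of Trem2 (grey), Oscar (red) and Siglec15 (yellow) in each library, osteoclasts on the left and BMMs on the right. The bars of the osteoclast libraries reach 587 to 651 TPM in 3 parts, and the bars of the BMM libraries reach 563 to 590 TPM and are nearly all Trem2.

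Among the kinases Tec fell, and Syk and Btk differed little. Syk (ENSMUSG00000021457, chr13:52583173-52648792), which binds the phosphorylated ITAM, measured 101, 86.6 and 101 TPM in osteoclasts and 79.3, 81.3 and 84.6 TPM in BMMs. It was higher in osteoclasts by 0.23 on the log2 scale (standard error 0.07, adjusted p = 0.021 from limma, in a range of 0.00097 to 0.81 over 16 alternatives). The log2 fold change was 0.02 after median-ratio scaling, which ends the call, as does leaving out any 1 of osteoclast replicate 1, BMM replicate 1 and BMM replicate 2, at 0.20 to 0.23.
Btk (ENSMUSG00000031264, chrX:134542336-134583570) measured 96.9, 95.6 and 89.2 TPM in osteoclasts and 81.7, 81.7 and 86.3 TPM in BMMs, which is higher by 0.17 on the log2 scale in osteoclasts (standard error 0.06, adjusted p = 0.026 from limma, in a range of 0.0055 to 1 over 16 alternatives). It turned to -0.04 after median-ratio scaling and to -0.03 after quantile normalization, neither past the test. The call was also lost without any 1 of osteoclast replicate 1, BMM replicate 1 and BMM replicate 2, at 0.15 to 0.16.
Tec (ENSMUSG00000029217, chr5:72755716-72868483), the other Tec family kinase of these cells, measured 33.3, 33.8 and 31.7 TPM in osteoclasts and 49.0, 47.8 and 52.4 TPM in BMMs. It fell to 66.3% of its BMM level (log2 fold change -0.58, standard error 0.06, adjusted p = 5.7e-05 from limma) and was called in 16 of 16 alternatives. Tec per Btk was 0.344, 0.354 and 0.356 in osteoclasts and 0.599, 0.585 and 0.607 in BMMs, a log2 difference of -0.77 (exact permutation p = 0.1, two-sided, the smallest possible). With the TPM as deposited, the summed TPM of Btk and Tec overlapped between the groups, at 121 to 130 TPM in osteoclasts and 129 to 139 TPM in BMMs. This sum was not remade under the other scalings. Median-ratio scaling divides the osteoclast libraries by 1.06 to 1.12 and the BMM libraries by 0.918 to 0.945. That lowers the osteoclast sums and raises the BMM sums, so the overlap depends on the scaling. Zap70, the relative of Syk in T cells, and the Tec family members Bmx and Txk averaged under 1 TPM in both groups and were not tested.

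The scaffold Blnk and the phospholipase Plcg2 did not pass the test. Blnk (ENSMUSG00000061132, chr19:40928927-40994535), also called SLP-65, measured 49.0, 51.6 and 45.2 TPM in osteoclasts and 46.8, 44.1 and 47.9 TPM in BMMs, and the groups overlap. Its log2 fold change was 0.07 (95% interval -0.09 to 0.23, adjusted p = 0.39 from limma), with values of -0.14 to 0.12 over the alternatives and no call in any of the 16.
Plcg2 (ENSMUSG00000034330, chr8:117498291-117635142) measured 94.1, 76.8 and 99.3 TPM in osteoclasts and 101, 102 and 100.01 TPM in BMMs. Osteoclast replicate 2 was the lowest, and the groups do not overlap. The log2 fold change was -0.175 (95% interval -0.39 to 0.04, adjusted p = 0.13 from limma, in a range of 0.0061 to 0.24 over 16 alternatives), and it reached -0.385 and passed the test after median-ratio scaling. It also passed without osteoclast replicate 3, at -0.249, and was -0.065 without osteoclast replicate 2.
Of the related genes Lcp2 and Plcg1, Lcp2 was called. Lcp2 (SLP-76), the scaffold related to Blnk, rose to 118 ± 5.19 TPM in osteoclasts, against 62.1 ± 2.74 TPM in BMMs (SD, n = 3 each), and Blnk per Lcp2 was 0.396, 0.455 and 0.385 in osteoclasts and 0.723, 0.744 and 0.767 in BMMs. Plcg1 measured 7.03 ± 0.858 TPM in osteoclasts and 6.55 ± 0.220 TPM in BMMs (SD, n = 3 each) and did not pass the test (adjusted p = 0.47 from limma). The TPM of Plcg2 was 12.8 ± 0.130 times that of Plcg1 in osteoclasts and 15.5 ± 0.685 times in BMMs.

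**Figure D3:**
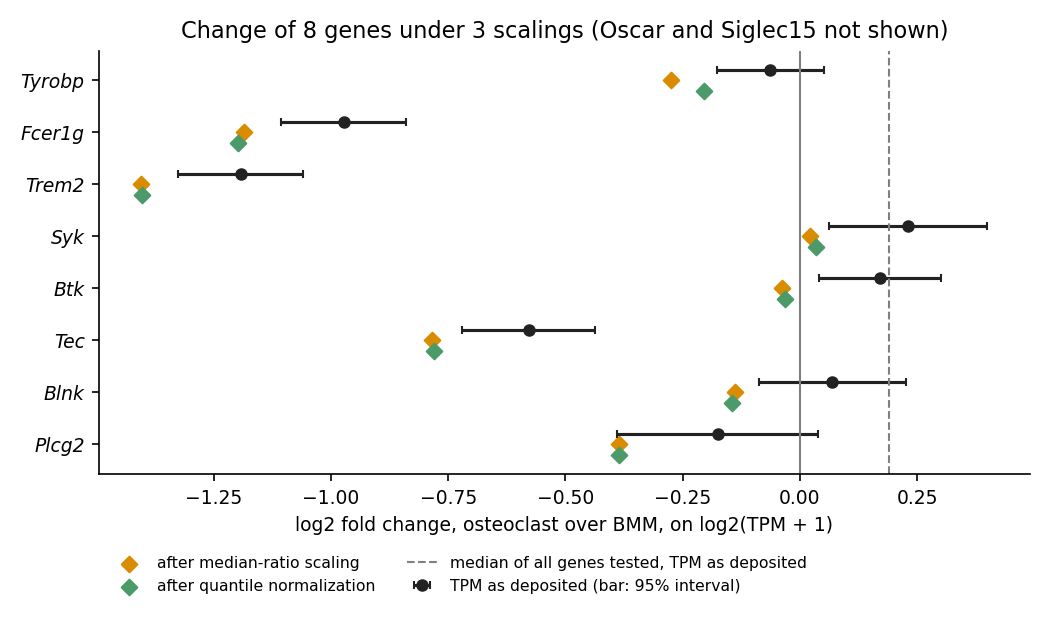
Log2 fold change, osteoclast over BMM, of 8 of the genes with the TPM as deposited (black, bar at the 95% interval), after median-ratio scaling (orange) and after quantile normalization (green), with the median of all genes tested as a dashed line at 0.19. Fcer1g, Trem2, Tec, Tyrobp and Plcg2 stay below 0 under each scaling, where the intervals of Tyrobp and Plcg2 reach past 0. Syk stays above 0, and Btk and Blnk lie on either side of 0.

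Around these genes, most other receptors that use the same adaptors were lower in osteoclasts. Of 20 such receptors tested, 17 were lower and 3 were higher, where 23.5% of all genes tested were lower and 45.3% were higher. The list's median log2 fold change was -1.15, against 0.19 for all genes tested, and the counts were the same under each of the 3 other scalings. Markers of myeloid cells were lower alongside this list, with the neutrophil markers at a sum of 15.0 to 27.3 TPM in osteoclasts and 2960 to 3230 TPM in BMMs and 7 of 9 macrophage markers lower, and their part in it was not tested. The smallest values were those of the Fc gamma receptors Fcgr1 (log2 fold change -2.84), at 28.8 ± 2.10 TPM in osteoclasts and 212 ± 6.32 TPM in BMMs, and Fcgr3 (-2.73), at 198 ± 5.79 TPM in osteoclasts and 1321 ± 34.2 TPM in BMMs (SD, n = 3 each). The largest were those of the paired immunoglobulin-like receptor genes Pira2 (1.27), at 60.2 ± 9.38 TPM in osteoclasts and 24.2 ± 0.984 TPM in BMMs, and Lilra6 (0.95), at 11.5 ± 2.15 TPM in osteoclasts and 5.44 ± 0.796 TPM in BMMs (SD, n = 3 each). Both belong to a family of near-identical copies, among which reads may have been split, so their levels are uncertain. The same limit holds for related genes counted separately among the lower ones, Sirpb1a, Sirpb1b and Sirpb1c, and Pilrb1 and Pilrb2. Pilrb1 kept its call in 10 of 16 alternatives.
Inhibitory receptors and phosphatases, which counter the ITAM signal, were mostly lower too. Of 23 tested, 17 were lower and 5 higher (23.5% and 45.3% of all genes tested), and Pilra did not pass the test. The median log2 fold change of the list was -0.61, and after median-ratio scaling, under which 4131 of all 12325 genes were lower and 4149 higher, 18 of the list were lower and 2 were higher. The same neutrophil and macrophage markers were lower alongside this list, and their part in it was not tested. Siglec1, a sialic acid-binding receptor of macrophages, fell to 30.9 ± 11.0 TPM in osteoclasts, against 238 ± 2.68 TPM in BMMs (SD, n = 3 each). It was counted in this list but is not known to counter the ITAM signal. Fcgr2b, the inhibitory Fc gamma receptor, fell to 34.2 ± 1.10 TPM in osteoclasts, against 154 ± 5.51 TPM in BMMs (SD, n = 3 each). Clec12a, an inhibitory lectin, rose to 209 ± 35.3 TPM in osteoclasts, against 100.1 ± 3.87 TPM in BMMs, and the adaptor Dok1 rose to 119 ± 4.31 TPM in osteoclasts, against 76.9 ± 2.66 TPM in BMMs (SD, n = 3 each).

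The kinases that start the signal changed their makeup. Of 10 Src family kinases and regulators tested, 3 were higher, 6 were lower and 1, Csk, did not pass the test, where 45.3% of all genes tested were higher and 23.5% lower. After median-ratio scaling 7 were lower, Csk among them. Src rose to 204 ± 16.9 TPM in osteoclasts, against 3.54 ± 0.423 TPM in BMMs (SD, n = 3 each), a difference of 5.50 on the log2 scale (standard error 0.09, adjusted p = 3.8e-09 from limma). Lyn fell to 93.7 ± 5.97 TPM in osteoclasts, against 154 ± 2.54 TPM in BMMs (SD, n = 3 each). Src per Lyn was 2.07, 2.05 and 2.43 in osteoclasts and 0.0197, 0.0240 and 0.0257 in BMMs. Ptpn22, a phosphatase that acts on Src family kinases, had a log2 fold change of 1.98, and Pag1, a membrane anchor of Csk, had one of -0.75.
Among 19 scaffolds, exchange factors and ubiquitin ligases tested, 6 were higher, 8 were lower and 5 did not pass the test (all genes tested: 45.3% higher, 23.5% lower). After median-ratio scaling 3 were higher and 11 were lower, a move in the same direction as that of all genes, of which 4149 were then higher, against 5585 with the TPM as deposited, and 4131 lower, against 2901. Lat, a membrane scaffold known from T cells, rose to 13.2 ± 0.718 TPM in osteoclasts, against 1.27 ± 0.232 TPM in BMMs, and Dok3 rose to 232 ± 7.83 TPM in osteoclasts, against 99.1 ± 1.72 TPM in BMMs (SD, n = 3 each). Vav3, a guanine nucleotide exchange factor that osteoclasts use, fell to 12.7 ± 1.92 TPM in osteoclasts, against 27.9 ± 0.0987 TPM in BMMs, and Sla fell to 6.13 ± 0.540 TPM in osteoclasts, against 12.9 ± 0.666 TPM in BMMs (SD, n = 3 each). Of 11 genes of the calcium and protein kinase C arm tested, 3 were higher, 4 were lower and 4 did not pass the test, beside the same 45.3% higher and 23.5% lower of all genes, and after median-ratio scaling 2 were higher and 6 were lower. Malt1 (log2 fold change 1.73) and the calcium release channel Itpr3 (0.84) had the largest values, and Itpr1 (-0.67) and the calcium sensor Stim1 (-0.54) the smallest.

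**Figure D4:**
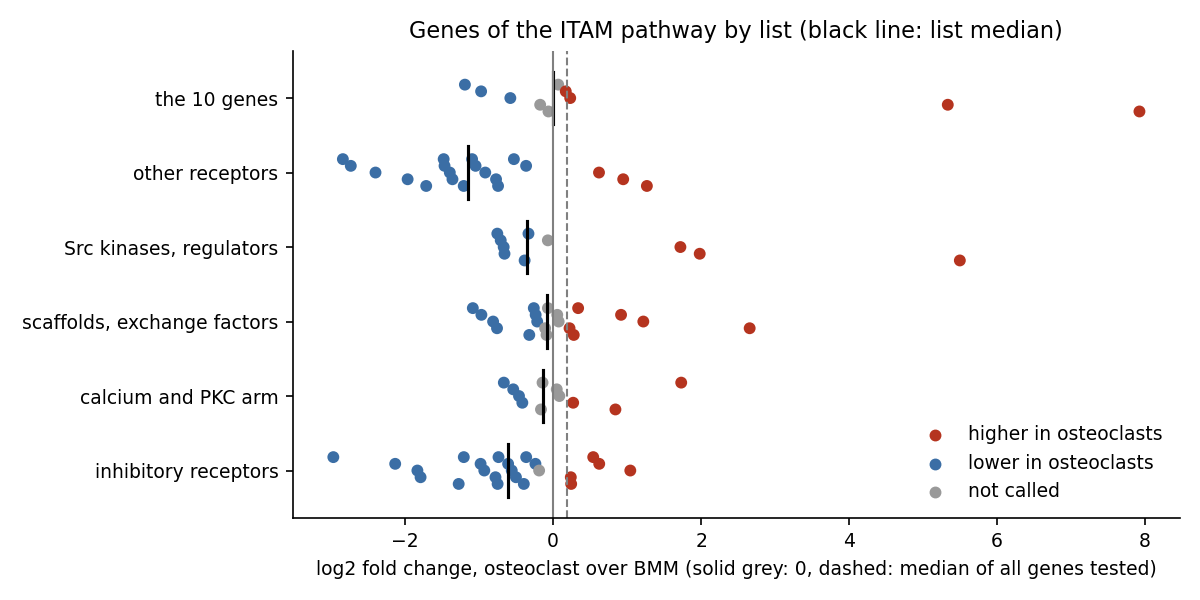
Log2 fold change, osteoclast over BMM, of each tested gene in the list of 10 and in 5 lists of the same pathway, colored by the limma call, with the list median in black, 0 in solid grey and the median of all genes tested as a dashed line at 0.19. The other receptors and the inhibitory list lie mostly below 0, and Src, Oscar and Siglec15 stand far to the right.

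Several of the 10 genes are also used by other marrow cells, so marker genes of those cells were measured beside them. Of 9 neutrophil markers tested, 9 were lower in osteoclasts, and the summed level of the 10 listed was 15.0 to 27.3 TPM in osteoclasts and 2960 to 3230 TPM in BMMs, with S100a9 the most abundant at 10.9 TPM in osteoclasts and 1726 TPM in BMMs. Elane and Ly6g were at 0 in the osteoclast libraries. Neutrophils are known to express Tyrobp and Fcer1g, and the part of neutrophil RNA in the lower Fcer1g was not tested. Of 9 B cell markers, 3 were tested and lower, with a sum of 6.31 to 7.46 TPM in osteoclasts and 78.3 to 85.1 TPM in BMMs. The highest of them in osteoclasts was Cd22, at 4.56 TPM in osteoclasts and 11.9 TPM in BMMs, and the highest in BMMs was Ighm, at 1.26 TPM in osteoclasts and 59.4 TPM in BMMs. The defining B cell gene Pax5 was at 0 in osteoclasts and averaged 0.0952 TPM in BMMs. B cells are known to express Blnk, Btk and Plcg2, and the part of B cell RNA in their values was not tested. The 8 mast cell and basophil markers, which matter for Fcer1g, summed to 0.837 to 1.16 TPM in osteoclasts and 3.41 to 4.37 TPM in BMMs, with Tpsb2 and Cma1 at 0 in all 6 libraries. The highest in osteoclasts was Mcpt8, at 0.540 TPM in osteoclasts and 1.01 TPM in BMMs, and the highest in BMMs was Prss34, at 0 TPM in osteoclasts and 2.29 TPM in BMMs. The 10 NK and T cell markers summed to 10.2 to 11.5 TPM in osteoclasts and 8.77 to 9.91 TPM in BMMs, with Gzma at 0 in all 6 libraries. The highest of them in osteoclasts was Trac, which rose to 5.56 TPM in osteoclasts, against 0.281 TPM in BMMs, and the highest in BMMs was Cd4, which fell to 4.56 TPM in osteoclasts, against 8.18 TPM in BMMs. The defining T cell genes Cd3e, Cd3d and Cd3g averaged 0.0356, 0.0347 and 0.0833 TPM in osteoclasts and 0.0875, 0.202 and 0.181 TPM in BMMs. Of 9 macrophage markers tested, 7 were lower, 1 was higher and 1 did not pass the test, and the most abundant, Lyz2, measured 24753 ± 737 TPM in osteoclasts and 71494 ± 1190 TPM in BMMs (SD, n = 3 each). The sums of 5 plasmacytoid dendritic cell markers reached 14.7 TPM in osteoclasts and 5.98 TPM in BMMs, nearly all of it Cox6a2, at 13.8 TPM in osteoclasts and 4.95 TPM in BMMs, and the sums of 6 megakaryocyte markers were 1.98 to 2.99 TPM in osteoclasts, where Gp1ba was the highest, and 19.9 to 21.1 TPM in BMMs, where Ppbp was the highest. The 7 stromal and osteoblast markers, led by Col1a1 at 85.6 TPM in osteoclasts and 3.87 TPM in BMMs, summed to 111 to 138 TPM in osteoclasts and 7.04 to 7.31 TPM in BMMs. In osteoclasts nearly all of it was collagen RNA, with Col1a2 at 34.0 TPM and Col3a1 at 6.09 TPM beside Col1a1. The osteoblast genes Sp7, Bglap and Alpl averaged 0.215, 0.164 and 0.0724 TPM in osteoclasts and 0.0447, 0 and 0.0153 TPM in BMMs. Runx2 did not pass the test. The part of the cell types named above in the values of the 10 genes was not tested.
No annotated gene shares exonic bases with any of the 10. Btk, Tec and Plcg2 each overlap 1 other annotated gene outside exons, of which Gm15154, within Btk, measured 0.338 TPM in osteoclasts and 0.689 TPM in BMMs and the other two were at 0.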

How the data were processed

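RNA-Seq libraries of osteoclasts at day 4 (3) and BMMs at day 0 (3) were grouped by their labels. The submitters' notes name bcl2fastq 2.17 for conversion of paired reads, Trimmomatic 0.36 for trimming and, for alignment to mm10, STAR 2.5.2b. The authors deposited TPM values of each library, which sum to 1000000. How hits were counted, with which strand setting, and how TPM was made from them is not stated in those notes or the methods. Depth is unknown, so no counting interval or count test was made.

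The deposited TPM were tested without further scaling, on the log2(TPM + 1) scale, by limma 3.58.1 under R 4.3.3 (empirical Bayes with trend, two-sided, Benjamini-Hochberg adjustment over 12325 genes averaging at least 1 TPM, threshold 0.05). The fit was tested on simulated data with few changed genes, as many raised as lowered, so that test cannot speak to the choice of scaling. Ratios of partner genes within a library were compared with an exact permutation test over libraries. The alternatives tried were a pseudocount of 0.1 or 0.5 TPM, a filter at 5 TPM or none, median-ratio scaling, quantile normalization, rescaling after the 20 most abundant and the mitochondrially encoded genes were removed, limma with array weights or with no trend, a replicate block, a limit of 1 on the absolute log2 fold change, 1 TPM added to both genes of a ratio, and each library left out.

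Of 49315 identifiers, 48970 matched GENCODE vM21 on GRCm38, used for loci and coding sequence. Of the 10 genes, 8 matched the RefSeq promoter table. Genes named were the 10 members, the 2 largest and 2 smallest log2 fold changes of each pathway list, genes of the ratios, the most abundant gene of each marker list and the 2 nearest genes of each member. Markers named as defining a cell type, at 0 or highest in 1 group, were added after their values were seen. So were the stromal markers beside Col1a1, the Sirpb1 and Pilrb genes, Pilra and Csk. The members and lists were chosen with earlier results of these data known, which gives them no independence from these libraries.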

Additional observations from a re-analysis of the deposited data

How the results depend on the processing

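Fcer1g (-1.20 to -0.94), Trem2 (-1.40 to -1.15), Oscar (7.65 to 10.23), Siglec15 (5.11 to 6.08) and Tec (-0.785 to -0.541) kept direction and call in all 16 alternatives, as log2 fold changes of osteoclasts over BMMs, and Blnk (-0.144 to 0.119) was called in none. Median-ratio scaling, quantile normalization and rescaling without the most abundant genes gave 0.021, 0.035 and 0.061 for Syk, -0.039, -0.031 and 0.0 for Btk (none called), and -0.385, -0.385 and -0.347 for Plcg2 (all called). Tyrobp was called lower at -0.275 after median-ratio scaling, -0.235 after rescaling and -0.104 with array weights. Btk was not called without the trend, at 0.171 with an adjusted p of 0.051 from limma. Leaving out 1 library gave 0.193 to 0.305 for Syk, 0.149 to 0.207 for Btk and -0.249 to -0.065 for Plcg2. Of the 10 genes, 2 were called higher under each of the 3 scalings and past an absolute log2 fold change of 1, and 2 to 4 with 1 library left out. Of all genes tested, 4149, 4090 and 4367 were higher under median-ratio scaling, quantile normalization and rescaling. With 1 library left out, 4998 to 5818 of all 12325 genes were higher. Of the 10, 5 were called lower under median-ratio scaling and rescaling, and 1 past that fold limit. Of all genes, 4131 of 12325 were lower under median-ratio scaling and 3778 of 12278 under rescaling. Of the 85 other pathway genes tested, 20 were higher and 53 lower, where 45.3% of all genes tested were higher and 23.5% were lower. After median-ratio scaling, under which 4149 of all 12325 genes were higher and 4131 lower, 13 of these pathway genes were higher and 60 lower. Past the fold limit 8 were higher and 20 lower. The share of all genes past that limit was not counted, so nothing is read from these counts or from those of the 10 genes past it. Adding 1 TPM to both genes reduced the log2 difference to 8.897 for Oscar over Fcer1g, 5.396 for Siglec15 over Tyrobp, 9.116 for Oscar over Trem2 and 6.204 for Src over Lyn. The causes of these changes were not tested.

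Whether replicate numbers pair the samples is unknown, since the labels name no animal or culture. Deviations of same-numbered libraries correlated across genes at -0.049, -0.003 and -0.068. Those of differently numbered libraries correlated at -0.065 to 0.104. With 3 libraries per group, values near 0 cannot exclude a shared animal or culture. With the replicate block 5502 genes were higher and 2821 lower, against 5585 and 2901 without it, and Btk (0.171, adjusted p = 0.069 from limma) was the one gene of the 10 whose call was lost. Unknown depth limits what can be said of the low BMM values of Oscar and Siglec15.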

Other observations

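For each of the 10 genes, the genes nearest to it in log2(TPM + 1) over the 6 libraries were found by Euclidean distance, which is a description of likeness in level and direction. Nearest to Oscar were Ocstamp, a multipass membrane protein needed for osteoclast fusion, at 165 ± 11.4 TPM in osteoclasts and 0.283 ± 0.0539 TPM in BMMs (distance 1.30), and Slc9b2, a sodium-proton exchanger of osteoclasts, at 198 ± 5.14 TPM in osteoclasts and 0.815 ± 0.0425 TPM in BMMs (distance 1.43; SD, n = 3 each). Nearest to Siglec15 were Traf1, an adaptor of tumor necrosis factor receptors, at 67.8 ± 3.73 TPM in osteoclasts and 1.03 ± 0.0586 TPM in BMMs (distance 0.825), and Bdh1, an enzyme of ketone body metabolism, at 107 ± 7.49 TPM in osteoclasts and 1.60 ± 0.305 TPM in BMMs (distance 0.837; SD, n = 3 each). Both neighbors of Oscar and of Siglec15 lay farther off than those of the other 8 genes.

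Nearest to Trem2 were C5ar1, the complement C5a receptor, at 252 ± 2.89 TPM in osteoclasts and 593 ± 9.70 TPM in BMMs, and Blvrb, a biliverdin reductase, at 258 ± 20.9 TPM in osteoclasts and 612 ± 11.8 TPM in BMMs (distances 0.154 and 0.178; SD, n = 3 each). Nearest to Fcer1g were Ifitm3, an interferon-induced membrane protein (distance 0.237), and the lysosomal lipase Lipa (0.467). Tyrobp lay nearest to Lgals3 (0.562) and Gpnmb (0.575), which are alike to it in level more than in change. Their log2 fold changes were -0.475 and -0.482, against -0.063 for Tyrobp. Syk lay nearest to Cyfip1 (0.092) and Rela (0.157), Btk to Casp8 (0.077) and Coa5 (0.115), Tec to Fuca2 (0.164) and Psmb9 (0.199), Blnk to Rexo2 (0.132) and Aaas (0.16), and Plcg2 to Parp1 (0.092) and Chd4 (0.152).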
